A study of Bos taurus with 3 samples.

Results

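The genes described here were the interferon response and antigen presentation genes of the bovine mammary gland around calving. They were chosen by name: the symbols that began with BOLA (bovine MHC), IFI, IFN, IRF1 to IRF9, ISG, OAS, GBP, TAPBP, STAT, SOCS or TRIM20 to TRIM29, together with MX1, MX2, TAP1, TAP2, B2M, CIITA, RSAD2, DDX58 and DHX58. BOLA-DQB and BOLA1 to BOLA3 were left out. The rule itself used no measured value, but it was chosen with earlier results of these data known. It took 58 of the 9154 genes listed in the tables. The tissue was biopsied from 18 second-parity Holstein cows, 6 of them at each of 3 times relative to parturition, which were -35 d and -7 d (both before calving) and +3 d (after calving). No cow carried an allele or received an agent that the labels name, and the times were sampled from different cows. The biopsies of a time were pooled before RNA was extracted, so that each time is 1 library and the spread between cows is not in the data.

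Interferons are secreted proteins that bind receptors on the cell surface and act through STAT and IRF transcription factors. Type I interferons switch on antiviral effectors such as MX1, ISG15 and the OAS enzymes, and interferon gamma in particular raises the genes of antigen presentation. MHC class I, made of a heavy chain and B2M, shows peptides cut in the cytosol by the proteasome and pumped into the endoplasmic reticulum by TAP1 and TAP2. MHC class II shows peptides cut in endosomes, and is found above all on macrophages, dendritic cells and B cells. In the mammary gland STAT5 also carries the prolactin signal for milk synthesis, and SOCS proteins damp both kinds of signal.

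Digital gene expression counted tags, each a CATG site with the 17 bases after it and in principle the site nearest the 3′ end of a transcript, and levels are given as TPM, the unambiguous tags of a gene scaled to 1000000 clean tags. A level on this scale is not divided by transcript length, and transcripts with several sites may also have given tags from the others. In the order -35 d, -7 d and +3 d, which holds for every trio of levels or tags below, the libraries held 5914422, 5593237 and 5845821 clean tags, and a count of 0 allows up to 0.507, 0.536 and 0.513 TPM. The 5 genes that each took over 1% of tags in some library held 0.348%, 4.13% and 22.6% of all tags. The median log2 ratio of all tested genes was -0.21 from -35 d to -7 d (stage I), -0.30 from -7 d to +3 d (stage II) and -0.54 from -35 d to +3 d (the whole interval). Scaling by the trimmed mean of M values (TMM) added 0.19, 0.31 and 0.50 to every log2 ratio, and calls of members and pathway genes that this ended or added are named below. A gene was called where the Audic-Claverie exact test gave a false discovery rate of at most 0.001 over all tested genes and the level differed at least 2-fold. The test compared libraries, not times, and its error and all 95% intervals given here cover counting error only.

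The 3 libraries listed 55, 51 and 49 of the 58 members. In all 3 libraries 45 were listed, and 42 had over 3 tags in each. A further 8 had at most 3 tags in every library, too few for any comparison. Together the members held 38155, 32957 and 22127 tags, or 6451, 5892 and 3785 TPM. B2M alone was 65.2%, 74.1% and 60.4% of these tags, and without it the sums were 2242, 1526 and 1500 TPM. On total clean tags the summed level of the members other than B2M was thus highest at -35 d and near the same at -7 d and +3 d. This order depends on the scaling. The TMM shifts of 0.31 in stage II and 0.50 over the whole interval place +3 d above -7 d and near -35 d.

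**Figure D1:**
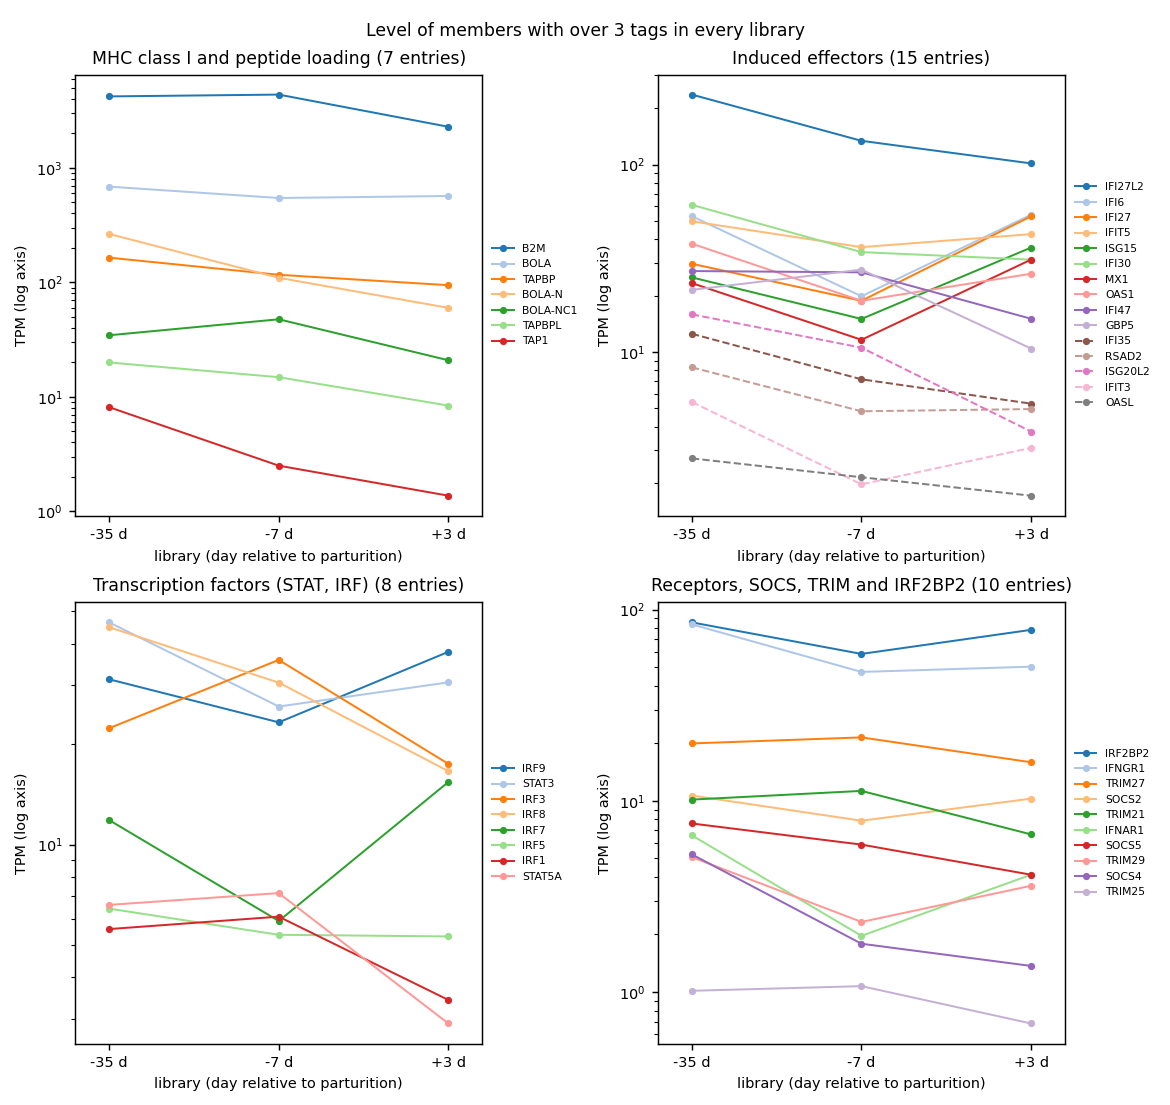
Level in TPM (log axis) of 40 of the 42 members with over 3 tags in every library, by library and role, with lines joining the 3 libraries of a member (1 pool of 6 cows each, so no error bar). IFI6, IFI27, ISG15, MX1 and IRF7 were lowest at -7 d, whereas BOLA-N, TAPBPL and IRF8 were lower in each later library.

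In stage I, 0 of the 56 members tested were called higher, beside 2.62% of all tested genes, and 7 (12.5%) were called lower, beside 6.45%. The 7 were BOLA-DQA2, BOLA-N, IFI6, IFNAR1, MX1, OAS1 and TAP1, and with TMM scaling only BOLA-N and IFI6 were called, beside 4.22% of genes called higher and 3.9% lower. In stage II, 5 of 54 members (9.26%) were called higher, beside 3.12% of genes, and these were IFI27, IFI6, IRF7, ISG15 and MX1. Another 4 (7.41%) were called lower, beside 10.4%, namely BOLA-NC1, GBP5, IRF3 and ISG20L2. TMM scaling kept the 5 higher calls, added IRF9 and left GBP5 alone of the lower calls, with 5.87% of genes higher and 4.9% lower. Over the whole interval 0 of 58 members were called higher, beside 2.33%, and 11 (19.0%) were called lower, beside 16.3%. These were BOLA-DOB, BOLA-DQA2, BOLA-N, GBP5, IFI27L2, IFI35, IRF8, ISG20L2, SOCS4, TAP1 and TAPBPL. With TMM scaling 4 of them were called lower (BOLA-DQA2, BOLA-N, ISG20L2 and TAP1) and IFI27 and ISG15 were called higher, beside 6.23% of genes higher and 4.94% lower. The share of members called lower in stage II and over the whole interval was thus close to that of all genes. In stage I the share called lower was 12.5% beside 6.45% on total tags, but 3.57% beside 3.9% with TMM scaling. These counts of lower calls are no result about the members.

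The median log2 ratio of the members was -0.68 in stage I, -0.31 in stage II and -0.76 over the whole interval. These medians lay -0.47, -0.01 and -0.22 from those of all tested genes. With TMM scaling the stage II median was 0.00 and the members above and below 0 numbered 27 and 27, in place of 24 and 30. The members are described by role, since the median over all of them joins roles with unlike values. Stage I and stage II share the -7 d library, and the whole interval shares a library with each, so that the 3 comparisons are not independent of each other.

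**Figure D2:**
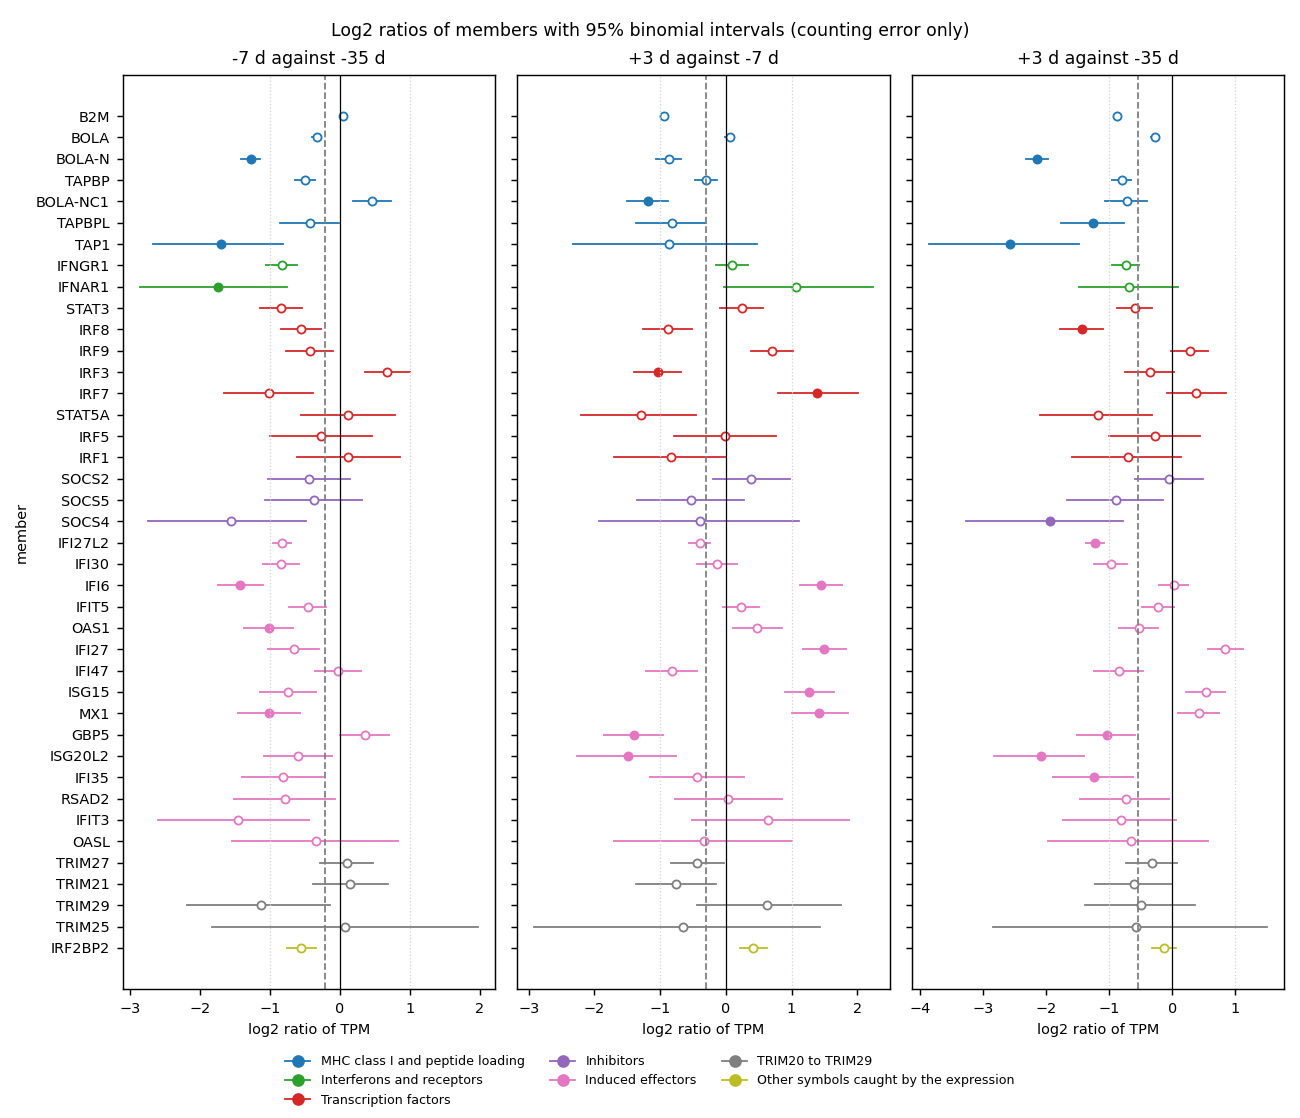
Log2 ratio of TPM (later over earlier library) of the same 40 members with 95% binomial intervals, in 3 panels for the 3 comparisons, with filled points for called members. The dashed line is the median of all tested genes (-0.21, -0.30 and -0.54) and the dotted lines mark a 2-fold difference. In the middle panel IFI6, IFI27, ISG15, MX1 and IRF7 lie to the right, with GBP5, IRF3 and BOLA-NC1 to the left.

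Among the 10 class I and peptide loading entries, B2M and the abundant BOLA heavy chain entry had the highest levels in every library. BOLA-N was lower in each later library, and TAP1 was highest at -35 d. B2M, the light chain of class I, had 24894, 24421 and 13360 tags (4209, 4366 and 2285 TPM). The +3 d library stood apart, with log2 ratios of 0.05 in stage I (95% interval 0.03 to 0.08) and -0.93 in stage II (-0.96 to -0.90), just inside the 2-fold limit. The TMM log2 ratio of B2M in stage II was -0.63. The more abundant BOLA entry, a class I heavy chain, was at 685, 545 and 568 TPM, and its log2 ratio was -0.33 in stage I (-0.40 to -0.26) and 0.06 in stage II (-0.01 to 0.13). On total tags its -35 d library was the highest and its later libraries did not differ beyond counting error, whereas with TMM scaling its log2 ratio was 0.37 in stage II and 0.23 over the whole interval, which makes +3 d the highest.

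BOLA-N, another class I heavy chain, had 1565, 613 and 350 tags (265, 109.6 and 59.9 TPM). Each library lay below the one before it, and the fall was called in stage I (log2 ratio -1.27, 95% interval -1.41 to -1.14) and over the whole interval (-2.14, -2.32 to -1.98), under both scalings. In stage II the log2 ratio of BOLA-N was -0.87 (-1.07 to -0.68), which was not called. BOLA-NC1, a non-classical class I gene, was at 34.5, 47.6 and 20.9 TPM, so that its highest library was the one in which BOLA-N had already fallen. It was called lower in stage II (-1.19, -1.51 to -0.87), but not with TMM scaling (-0.88). Class I heavy chains are near-identical copies and only tags that matched a single gene were counted, so levels and differences among BOLA entries depend on which copies hold a tag of their own. The second BOLA entry had 3, 2 and 0 tags.

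Of the loading genes, TAP1, a subunit of the peptide pump, had 48, 14 and 8 tags (8.12, 2.50 and 1.37 TPM). The -35 d library was the high one, and the fall in TAP1 was called in stage I (log2 ratio -1.70, -2.67 to -0.81) and over the whole interval (-2.57, -3.86 to -1.48). With TMM scaling only the second of these calls stood, the stage I log2 ratio then being -1.51. In stage II the log2 ratio of TAP1 was -0.87 (-2.33 to 0.48), so its later libraries did not differ beyond counting error. Both TAP2 entries, the other subunit, had tags at -35 d only, with 3 and 2. TAPBPL, a tapasin-like editor of the peptide bound to class I, was at 19.95, 14.8 and 8.38 TPM and was called lower over the whole interval (-1.25, -1.76 to -0.76), though not with TMM scaling (-0.75). TAPBP, or tapasin, which holds the empty class I molecule at the pump, was at 164, 116 and 94.4 TPM and was not called in any comparison (whole interval -0.80, -0.95 to -0.65). The median log2 ratio of the class I and loading entries lay -0.25, -0.56 and -1.15 from that of all tested genes in stage I, stage II and the whole interval. Of these 10 entries, 3 had at most 3 tags in every library (the second BOLA and both TAP2 entries). Their ratios rest on the 0.5 tags added for medians and draw the whole-interval median down, so that -1.15 overstates the entries with more tags. Without B2M their summed level was 1178, 837 and 753 TPM.

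The genes that supply peptides to class I, which the naming rule did not take, were lower mostly at +3 d. Of the 9 listed of 11 symbols (proteasome subunits and activators, trimming peptidases and chaperones), 0 were called in stage I. In stage II 6 were called lower and over the whole interval 5, beside 10.4% and 16.3% of all genes. PSMB8, a catalytic subunit of the immunoproteasome, was at 109.7, 84.7 and 42.1 TPM and was called in both. PSMB9, a second catalytic subunit, was at 45.1, 49.0 and 21.4 TPM and was likewise called in both, so that for these subunits the +3 d library was the low one. PSMB10, the remaining catalytic subunit, was highest at -7 d (96.0, 170.2 and 68.8 TPM) and was called lower in stage II (log2 ratio -1.31, -1.48 to -1.14).

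PSME1, part of the proteasome activator, was lower in each library (67.6, 41.7 and 20.4 TPM) and was called in stage II and over the whole interval (-1.73, -2.04 to -1.43). ERAP2, which trims peptides in the endoplasmic reticulum, was at 17.2, 14.7 and 5.13 TPM and was called in both of these too (stage II -1.51, -2.17 to -0.89), while ERAP1 (18.4, 15.9 and 8.55 TPM) was called over the whole interval alone. CALR, a chaperone of class I folding, was at 871, 1154 and 455 TPM and was called lower in stage II (-1.34, -1.41 to -1.28). PDIA3, the oxidoreductase of the same complex, was at 149, 135 and 122 TPM with no call. With TMM scaling the stage II calls of ERAP2 and CALR stood, those of PSMB8, PSMB9, PSMB10 and PSME1 did not, and PSMB10 was called higher in stage I. The whole-interval calls that stood with TMM scaling were those of ERAP2 and PSME1.

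MHC class II was represented by 2 members, both at low levels, and BOLA-DQB was left out by the rule. BOLA-DQA2, a class II alpha chain, had 23, 3 and 0 tags, the first of these being 3.89 TPM. With its 0 tags at +3 d set to 3, it was 7.58-fold lower there than at -35 d. Such a fold, here and below, leaves out the counting error of the higher library. BOLA-DQA2 was called lower in stage I and over the whole interval. The stage I call was lost with TMM scaling. BOLA-DOB, a chain of the class II molecule that tunes peptide loading in B cells, had 21, 12 and 3 tags (3.55, 2.15 and 0.513 TPM) and was called over the whole interval, though not with TMM scaling. The DR chains and the class II activator CIITA are not analysed here.

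Other genes of the class II pathway were far more abundant, and 8 of 12 symbols were listed. CD74, the invariant chain that guards the class II groove, was at 1620, 999 and 754 TPM and was called lower over the whole interval (log2 ratio -1.10, -1.16 to -1.05), but not with TMM scaling (-0.61). CTSS, the protease that trims CD74, was at 432, 150.5 and 124 TPM and was called lower in stage I (-1.52, -1.64 to -1.41) and over the whole interval (-1.80, -1.92 to -1.68), under both scalings. The lysosomal proteases CTSB (672, 298 and 460 TPM) and LGMN (77.6, 35.0 and 63.6 TPM) were lowest at -7 d and were called lower in stage I, though not with TMM scaling. Of the 8 tested, 3 were called lower in stage I, 0 in stage II and 2 over the whole interval, beside 6.45%, 10.4% and 16.3% of all genes. With TMM scaling the counts were 1, 0 and 1, beside 3.9%, 4.9% and 4.94%, and LGMN was called higher in stage II.

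Markers of the immune cells that the tissue can hold are given beside these values. In bulk tissue fewer cells of a type and less RNA per cell cannot be told apart. Of 9 dendritic cell symbols 2 were listed, with summed levels of 16.6, 5.01 and 4.79 TPM, and CD1E was called lower in stage I and over the whole interval (14.0, 3.58 and 3.42 TPM). The 13 T cell markers listed summed to 318, 200 and 190 TPM, with 3 called lower in stage I (CD3G, CD8B and LCK), CD8A higher and CD27 lower in stage II, and 4 lower over the whole interval (CD27, CD3D, CD3G and CD8B). Beside these counts, 6.45% of all genes were called lower in stage I and 16.3% over the whole interval. With TMM scaling the counts were 3 and 2, beside 3.9% and 4.94% of all genes, with the stage II call of CD27 lost. The 5 B and plasma cell entries summed to 305, 169 and 177 TPM with 0 calls, of which IGJ, the joining chain of secreted antibodies, was 283, 149 and 160.3 TPM. The 3 sums were highest at -35 d, as were those of the class I members without B2M and of the class II members. So was the luminal epithelial sum (1340, 781 and 805 TPM), whereas the macrophage sum was highest at +3 d (355, 271 and 483 TPM). The part of these cells in the class I and class II values was not tested.

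**Figure D3:**
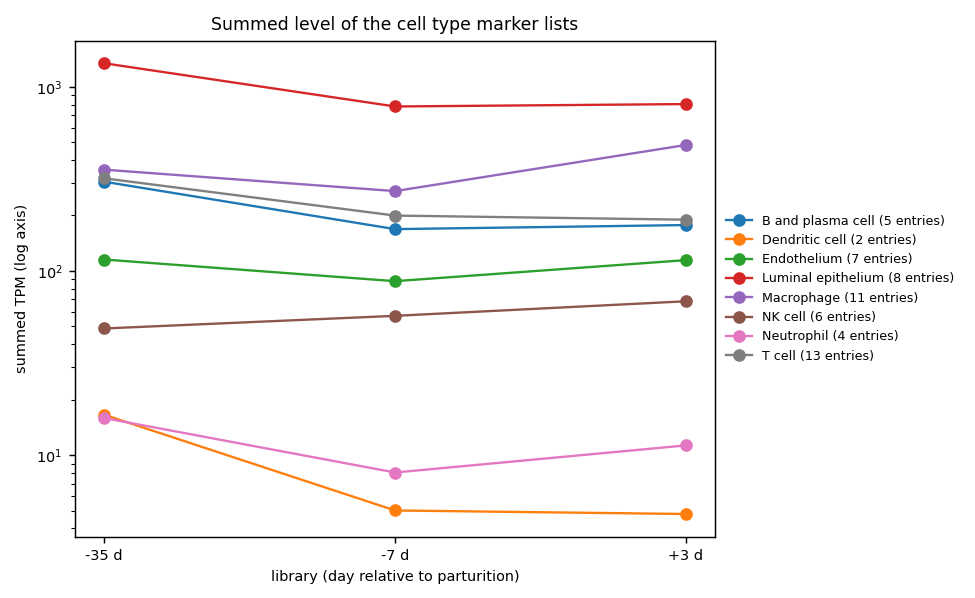
Summed level in TPM (log axis) of the cell type marker lists in the 3 libraries (1 pool each), with the number of entries summed. T cell and B and plasma cell markers were highest at -35 d, macrophage markers went from 271 TPM at -7 d to 483 TPM at +3 d, and luminal epithelial markers went from 1340 TPM at -35 d to 781 TPM at -7 d.

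Interferon genes themselves had few tags. IFNG, interferon gamma, had 5, 4 and 0 tags. With the 0 tags at +3 d set to 3, it was 1.65-fold lower there than at -35 d and 1.39-fold lower than at -7 d. These folds leave out the counting error of the 5 and 4 tags, and neither difference was called. No type I interferon gene was among the entries. Of the receptors, IFNGR1, the ligand-binding chain for interferon gamma, was at 83.7, 47.2 and 50.3 TPM and was not called, its stage I log2 ratio being -0.83 (-1.05 to -0.61). IFNAR1, a chain of the type I receptor, had 39, 11 and 24 tags (6.59, 1.97 and 4.11 TPM). Its -7 d library was the low one, and it was called lower in stage I (-1.75, -2.86 to -0.75), a call lost with TMM scaling at a log2 ratio of -1.56. IFNAR2 had 2 tags, both at +3 d.

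The 10 transcription factors had no common order across the libraries, and 3 of them were called in some comparison. IRF7, which drives type I interferon transcription and is itself interferon-induced, had 70, 33 and 90 tags (11.8, 5.90 and 15.4 TPM). The rise in stage II was called (log2 ratio 1.38, 0.79 to 2.01) under both scalings, and the whole-interval log2 ratio was 0.38 (-0.09 to 0.85). IRF9, the DNA-binding part of the complex that STAT proteins form under type I interferon, was at 31.3, 23.2 and 37.8 TPM. Its order across libraries was that of IRF7, with a stage II log2 ratio of 0.70 (0.38 to 1.03) that was called only with TMM scaling (1.01).

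IRF3, which is phosphorylated when a cell senses viral RNA and then switches on interferon genes, took the opposite order. It was at 22.3, 35.8 and 17.4 TPM, highest at -7 d, and was called lower in stage II (log2 ratio -1.03, -1.39 to -0.68), but not with TMM scaling (-0.73). IRF8, a factor of macrophages, dendritic cells and B cells, was at 44.8, 30.6 and 16.6 TPM. It was lower in each later library and was called over the whole interval (-1.43, -1.78 to -1.09), though not with TMM scaling (-0.93). The macrophage markers summed to 355, 271 and 483 TPM, an order unlike that of IRF8, while the dendritic cell sum was 16.6, 5.01 and 4.79 TPM and the B and plasma cell sum 305, 169 and 177 TPM. Their part in the IRF8 values was not tested.

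STAT3, a transducer of interleukin signals and of involution in the gland, was the most abundant STAT at 46.3, 25.9 and 30.6 TPM and was not called. STAT5A, a transducer of prolactin, was at 6.59, 7.15 and 2.91 TPM, also with no call, and was picked for its place in the pathway after its values had been seen. The stage II log2 ratio of STAT5A was -1.30 (-2.21 to -0.45) on 40 and 17 tags. Of the remaining factors, IRF1 and IRF5 lay between 3.42 and 6.42 TPM with no call. The transcription factor median differed from that of all genes by -0.28, 0.03 and -0.05.

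Around the prolactin signal, 4 of 5 symbols outside the naming rule were listed. ELF5, a transcription factor of the milk-producing epithelium, was at 271, 353 and 155 TPM and was called lower in stage II (-1.19, -1.30 to -1.07). CISH, a STAT5 target and feedback inhibitor, was at 11.7, 5.36 and 4.45 TPM and was called lower over the whole interval. Neither was called with TMM scaling.

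The induced effectors formed the largest class, with 20 entries, and several antiviral genes among them had their lowest level at -7 d and their highest at +3 d. IFI6, a mitochondrial protein that limits apoptosis and viral replication, had 314, 111 and 316 tags (53.1, 19.8 and 54.1 TPM). The -7 d library was the low one, and on total tags the others did not differ beyond counting error (whole-interval log2 ratio 0.03, -0.20 to 0.26), while the TMM log2 ratio was 0.52. The fall in stage I (-1.42, -1.75 to -1.10) and the rise in stage II (1.45, 1.13 to 1.77) of IFI6 were called under both scalings.

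MX1, a GTPase that blocks incoming viruses, had 138, 65 and 182 tags (23.3, 11.6 and 31.1 TPM). It was called lower in stage I (log2 ratio -1.01, -1.45 to -0.57), which was lost with TMM scaling, and higher in stage II (1.42, 1.01 to 1.85). IFI27, a small mitochondrial protein of the family of IFI6, had 175, 105 and 310 tags (29.6, 18.8 and 53.0 TPM). Its highest library was +3 d, and it was called higher in stage II (1.50, 1.17 to 1.83). Over the whole interval its log2 ratio was 0.84 (0.57 to 1.12), and with TMM scaling 1.34, which was called. ISG15, a ubiquitin-like protein that is joined to other proteins in infected cells, had 148, 84 and 211 tags (25.0, 15.0 and 36.1 TPM). It followed the order of IFI27, with a call in stage II (1.27, 0.89 to 1.65) and, with TMM scaling only, over the whole interval (1.03). The stage II calls of MX1, IFI27 and ISG15 stood under TMM scaling.

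OAS1, which makes the oligoadenylates that activate RNase L, was at 37.9, 18.8 and 26.2 TPM. It was called lower in stage I (-1.01, -1.36 to -0.67) and was not called in stage II (0.48, 0.11 to 0.85), and the stage I call was lost with TMM scaling. Cattle have several OAS1 copies of like sequence, so tags of this entry may not stand for all of them. IFIT5, an RNA-binding effector, was at 49.9, 36.3 and 42.6 TPM with no call (stage II 0.23, -0.04 to 0.51). Not every antiviral effector was higher at +3 d, and for MX2, a relative of MX1, the tags numbered 9, 2 and 0. With the 0 tags set to 3, MX2 was 2.97-fold lower at +3 d than at -35 d, counting error of the 9 tags aside, with no call.

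A further set of effectors was lowest at +3 d. GBP5, a guanylate-binding protein induced by interferon gamma, had 127, 154 and 61 tags (21.5, 27.5 and 10.4 TPM). It was called lower in stage II (log2 ratio -1.40, -1.85 to -0.96), under both scalings, and over the whole interval (-1.04, -1.51 to -0.59), without TMM scaling only. IFI27L2, the most abundant effector and a relative of IFI27, was at 237, 134 and 102 TPM, and IFI35, a partner of the protein NMI, at 12.5, 7.15 and 5.30 TPM. IFI27L2 was lower in every later library on total tags, its stage II log2 ratio being -0.09 with TMM scaling. IFI35 did not differ beyond counting error in stage II (-0.43, -1.16 to 0.28). Each was called lower over the whole interval (-1.22, -1.36 to -1.08, for IFI27L2 and -1.24, -1.89 to -0.62, for IFI35), with neither call kept under TMM scaling. ISG20L2 was at 15.9, 10.5 and 3.76 TPM and was called lower in stage II (-1.49, -2.26 to -0.76) and over the whole interval (-2.08, -2.82 to -1.40), the latter also with TMM scaling. ISG20L2 is named after the interferon-induced ISG20 but is known for the processing of ribosomal RNA.

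The other effectors, IFI30, IFI47, RSAD2, IFIT3, OASL, GBP4, OAS2, IFITM3 and IFITM5, were not called in any comparison, and IFI30, which reduces disulphide bonds of antigens in endosomes, was the most abundant of them at 61.0, 34.1 and 31.1 TPM. The effector median lay -0.61 from that of all tested genes in stage I, 0.43 above it in stage II and -0.22 from it over the whole interval. The log2 ratio was below 0 for 18 of 19 effectors tested in stage I (17 of 19 with TMM scaling) and above 0 for 10 of 18 in stage II (11 of 18 with TMM scaling). On total tags most tested genes also lay below 0, with medians of -0.21 and -0.30. The stage I counts include OAS2 and IFITM3 and the stage II counts IFITM5, each with at most 3 tags in every library. In sum the effectors were at 615, 370 and 423 TPM.

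**Figure D4:**
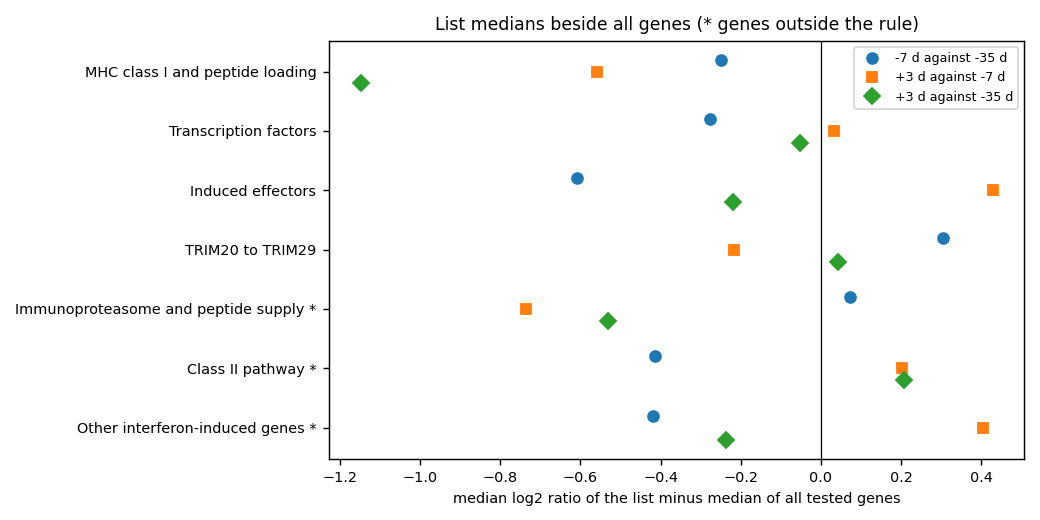
Median log2 ratio of each list minus the median of all tested genes, for the 3 comparisons, with lists outside the naming rule starred. Class I and peptide loading lay at -0.25, -0.56 and -1.15, and induced effectors at -0.61, 0.43 and -0.22. Each of these lists holds 3 entries with at most 3 tags in every library, which draw the -1.15 of class I down. No error is drawn, since the genes of a list are not replicates.

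Of 42 other interferon-induced symbols outside the rule, 22 were listed. In stage I, 3 were called lower and 0 higher, and in stage II 4 were called lower and 0 higher, beside 6.45% and 10.4% of genes called lower. Over the whole interval 6 were called lower, beside 16.3%, and with TMM scaling 3 (CXCL10, LGALS3BP and SAMHD1), beside 4.94%. Those of stage I were LGALS3BP (18.4, 3.40 and 6.50 TPM), a secreted glycoprotein, SAMHD1 (34, 2 and 5 tags), a hydrolase of deoxynucleotides, and UBE2L6 (27.1, 11.8 and 21.6 TPM), the conjugating enzyme for ISG15. All had their lowest level at -7 d and were called with TMM scaling too. LGALS3BP (log2 ratio -1.50) and SAMHD1 (-2.75) were also called lower over the whole interval. UBE2L6 was called higher in stage II with TMM scaling only (TMM log2 ratio 1.18, on total tags 0.87). The same held for HERC5, the ligase for ISG15, on 41, 17 and 40 tags (TMM log2 ratio 1.48, on total tags 1.17). HERC5 was named here after its values were seen.

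Those of stage II were PSMB8 and genes of chemotaxis, tryptophan breakdown and the cell surface. CXCL10, a chemokine that draws T cells and responds to interferon gamma, was at 93.0, 68.5 and 26.3 TPM and was called in stage II (log2 ratio -1.38, -1.66 to -1.11) and over the whole interval (-1.82, -2.09 to -1.56), under both scalings. IDO1, the enzyme that breaks down tryptophan, was at 41.8, 50.6 and 22.8 TPM, and LY6E, a membrane-anchored protein, at 90.1, 82.2 and 38.0 TPM. Both were lowest at +3 d and were called lower in stage II, and LY6E over the whole interval too (-1.25), but not with TMM scaling. NUB1, which targets ubiquitin-like proteins for breakdown, was called lower over the whole interval only (12.9, 7.69 and 5.13 TPM), and not with TMM scaling.

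Among 15 listed kinases, adaptors and sensors of the pathway, IKBKE, a kinase that phosphorylates IRF3 and IRF7, was at 14.2, 34.0 and 15.6 TPM. It was called higher in stage I (log2 ratio 1.26, 0.88 to 1.65), under both scalings, and lower in stage II (-1.13, -1.50 to -0.76), without TMM scaling only. Its highest library was -7 d, as for IRF3, whereas that of IRF7 was +3 d. TLR3, the endosomal sensor of double-stranded RNA, was at 53.9, 37.0 and 26.2 TPM, and its adaptor TICAM1 at 5.75, 2.15 and 1.71 TPM. TLR3 was lower in every later library, while TICAM1 did not differ beyond counting error in stage II (log2 ratio -0.33, -1.70 to 1.01). TLR3 and TICAM1 were called lower over the whole interval, though not with TMM scaling (log2 ratios -0.55 and -1.25). PTPN2, a phosphatase of JAK and STAT proteins, was the most abundant of the group at 60.2, 56.0 and 45.7 TPM and was not called. Over all 57 listed pathway genes outside the rule, 1 was called higher and 6 lower of 56 tested in stage I, 0 and 11 of 55 in stage II, and 0 and 15 of 56 over the whole interval, beside 6.45%, 10.4% and 16.3% of all genes called lower. The shares of all genes called higher were 2.62%, 3.12% and 2.33%. With TMM scaling the counts were 2 and 4, 3 and 3, and 0 and 6. Beside them, 4.22%, 5.87% and 6.23% of all genes were called higher and 3.9%, 4.9% and 4.94% lower.

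Of the 4 SOCS inhibitors, SOCS4 had 31, 10 and 8 tags (5.24, 1.79 and 1.37 TPM) and was called lower over the whole interval (log2 ratio -1.94, -3.27 to -0.78), a call lost with TMM scaling at a log2 ratio of -1.44. SOCS2, a target of STAT5 and a brake on growth hormone signals, was at 10.7, 7.87 and 10.3 TPM, and SOCS5 at 7.61, 5.90 and 4.11 TPM, with no call. SOCS3, the feedback inhibitor of STAT3, had 9, 0 and 2 tags. With the 0 tags set to 3, it was 2.84-fold lower at -7 d than at -35 d, counting error of the 9 tags aside, without a call.

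The TRIM20 to TRIM29 members gave 0 calls. TRIM27 was the most abundant at 19.95, 21.5 and 15.9 TPM, followed by TRIM21, an intracellular antibody receptor, at 10.1, 11.3 and 6.67 TPM and by TRIM29 at 5.07, 2.32 and 3.59 TPM. TRIM28, a corepressor of endogenous retroviruses, had 0, 2 and 6 tags. With the 0 tags set to 3, it was 2.02-fold higher at +3 d than at -35 d, counting error of the 6 tags aside. TRIM25, a ligase in RNA sensing, and TRIM23 had at most 6 tags in any library. IRF2BP2 and IRF2BP1, which bind IRF2 and are corepressors, were caught by the naming rule only through their names. IRF2BP2 was at 85.7, 58.6 and 78.3 TPM and IRF2BP1 had 8, 2 and 4 tags, with no call for either.

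The summed level of macrophage markers was highest at +3 d, as were IFI27, ISG15 and MX1. On total tags IFI6 did not differ beyond counting error between -35 d and +3 d. Of the 11 macrophage entries listed, 10 were tested in stage II, of which 3 were called higher (CD14, CD163 and CSF1R, with C1QB added by TMM scaling), beside 3.12% of all genes, and 0 lower. Their summed level went from 271 to 483 TPM. In stage I 3 of the 11 were called lower under both scalings (CD163, CD68 and CSF1R), beside 6.45%. CSF1R, the receptor for the growth factor of macrophages, was at 52.1, 22.5 and 54.4 TPM, which is the order of the IFI6 levels. CD163, C1QA and C1QB had the same order, though C1QA and C1QB hardly differed in stage I (log2 ratios -0.07 and -0.08). Other macrophage markers did not: AIF1, CD68, CD86 and the more abundant MSR1 entry were highest at -35 d, and CD14 was higher in each later library. NK cell markers summed to 48.7, 57.0 and 68.4 TPM, with GZMA and KLRD1 at 0 tags at +3 d, and GNLY (6.93, 17.9 and 21.2 TPM) was called higher in stage I and over the whole interval under both scalings. The 4 neutrophil entries listed summed to 15.9, 8.05 and 11.3 TPM. Endothelial markers (115, 88.0 and 114 TPM) were also lowest at -7 d, with KDR called lower over the whole interval, though not with TMM scaling. The luminal epithelial markers, with 8 of 10 symbols of this defining cell type of the gland listed, summed to 1340, 781 and 805 TPM. In stage I all 8 had a log2 ratio below 0, where the median of all tested genes was -0.21. Of the 8, 4 were called lower (CDH1, CLDN4, ELF3 and MUC1), beside 6.45% of all genes. With TMM scaling CDH1 and ELF3 were called, beside 3.9%. MUC1 was called higher in stage II (22.0 to 98.4 TPM), as was ELF3 with TMM scaling. Over the whole interval MUC1 was called higher, and EPCAM (498, 293 and 210.2 TPM) and CDH1 lower, the lower calls not with TMM scaling. The part of these cells in the values of the members was not tested.

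The fewest tags over both libraries of any called gene was 12, in each comparison. In stage I 11 of the 56 members tested had fewer than that, in stage II 11 of 54 and over the whole interval 13 of 58, so that a difference in these members was not detectable at this depth.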

How the data were processed

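The deposited tables gave, for each library, the raw unambiguous tag count of each gene and the same count as TPM, which the authors made by matching clean CATG tags to bovine reference transcripts (UMD 3.1) with at most 1 mismatch, leaving out tags that matched several genes. TPM and counts differed by at most 0.0050 TPM. Tags were not paired with genes in the tables used here. Of the 58 members 50 matched the RefSeq annotation of ARS-UCD2.0, used for names only, in which OAS1 is OAS1Y, IFITM3 and a TAP2 entry are unnamed loci, and 56 further symbols that the naming rule would take are not analysed here. Each pair of libraries was tested as in the study, by the Audic-Claverie exact test on counts with 0 TPM set to 0.01 and Benjamini-Hochberg adjustment over all genes with a tag in either library (8967, 8784 and 8988 genes). Log2 ratios carry exact (Clopper-Pearson) 95% intervals and are not given where a library had at most 3 tags. Medians of lists were taken with 0.5 tags added. Members were named where called, where among the 3 highest of a role, or where at 0 tags in a library and over 3 in another, and genes of the pathway lists outside the rule where called or among the 2 highest of a list. Members and lists were chosen with earlier results of these data known. Scripts ran in Python (3.11.15, scipy 1.17.1) and R (4.3.3, DESeq2 1.42.0, edgeR 4.0.16) and were tested on simulated data. Alternatives were TMM scaling, DESeq2 size factors, totals without genes over 1% of tags, a 3-fold threshold, Fisher's exact test, a mean of at least 5 TPM, 0.5 tags added, and edgeR's exact test in which the coefficient of variation between cows' pools is set to 0.2 or 0.4. Values of 2 members are not reported here.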

Additional observations from a re-analysis of the deposited data

How the results depend on the processing

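With 1 pool of 6 cows at each time, nothing in these data measures the spread between cows. No paired analysis was possible because each time point had 1 library, and for the same reason no library could be left out. The 7 members called lower in stage I became 2 with TMM scaling or DESeq2 size factors, 4 with totals without genes over 1% of tags and 3 at a 3-fold threshold. The 4 called lower in stage II became 1 under each of these scalings and 0 at 3-fold, where the 5 called higher also became 0. Over the whole interval the 11 called lower became 4 with TMM scaling or DESeq2 size factors, 5 without genes over 1%, 6 at 3-fold and 7 at a mean of at least 5 TPM, and the 0 called higher became 2, 2 and 1 under these scalings. Among all genes the share called lower also fell with TMM scaling, from 6.45%, 10.4% and 16.3% to 3.9%, 4.9% and 4.94%. For the other settings no share of all genes was computed, so their counts do not single out the members. With edgeR's exact test at a coefficient of variation set to 0.2, the counts were 0 lower in stage I, 0 higher and 0 lower in stage II and 2 lower over the whole interval (BOLA-DQA2 and BOLA-N), and with 0.4 they were 0 in all 3 comparisons. Fisher's exact test and 0.5 tags added left every count of members within 1.5 times of its value, and no call changed direction under any setting. Of 130 log2 ratios of single members, 13 lost their call with TMM scaling and 3 gained one. Promoter motifs were not searched.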
